A study of Mus musculus and Homo sapiens with 34 samples.

Results

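Mcpt1, Mcpt2 and Mcpt8, which encode granule serine proteases best known from mast cells and basophils, and Ctla2a, which encodes an inhibitor of cathepsin L, were followed through 22 mouse RNA sequencing libraries of lung tumour cultures. These 4 genes, of 21401 listed in the 4 mouse count tables, were chosen by name because earlier results of the same comparisons had shown them to move. The choice used every comparison with a matching vehicle, so their levels and changes are given here as a description, with no p value for any of the 4. In outline, all 4 genes were higher in both libraries treated to delete Hnf4a than in their controls. The 3 proteases were lower in both libraries after the MEK inhibitor trametinib in the 1027B organoids, by most for Mcpt8, and lower by less after the inhibitor MRTX1133. MRTX1133 at 3 nM moved none of them past the threshold in the 3154 organoids. That threshold was passed by 0.349% of all genes there without deletion and by 4.64% after it.

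The libraries form 11 groups of 2 from 3 cultures, each a single named line, and no label says whether replicates came from separate cultures, so errors and p values measure only the spread between these libraries. The 3154 lung organoids carry p53frt, with Rosa-FSF-CreERT2 for the inducible Cre and Hnf4aflox as its target. One pair of 3154 groups was treated with ethanol or with 4-hydroxytamoxifen (4OHT, 2 mM per the labels) for 2 days, and RNA was taken 2 weeks later. A further 4 groups of 3154 received ethanol or 4OHT, each with vehicle or 3 nM MRTX1133, for 48 hours, with no dose of 4OHT stated. All 4OHT libraries came from this line, so effects of 4OHT, Cre activity and Hnf4a loss cannot be told apart. Deletion below means 4OHT against ethanol. The 1027B lung organoids and the 3311 lung cell line both carry p53frt, with Rosa-FSF-CreERT2 as well as Foxa1flox and Foxa2flox, and the labels name no agent that would activate the Cre in them. The 1027B groups received vehicle, 10 nM trametinib or 20 nM MRTX1133, and the 3311 groups vehicle or 50 nM trametinib, all for 48 hours. The alleles are engineered and every group carries its line's alleles, including the CreERT2 at Rosa in the vehicle groups. Organoids grew in medium with L-WRN conditioned medium, and 3311 in DMEM with serum, so culture medium and line cannot be told apart.

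Total counts per library ran from 19692517 to 30857875, so that 1 count was worth between 0.0328 and 0.0542 CPM (reads relative to the library's total, scaled by TMM within each table). The tables were scaled separately, and whether they were counted against the same annotation is not given in the sources used here, which limits any level set across them. In the check of the deletion, Hnf4a fell from 371 ± 79.6 to 60.7 ± 10.2 CPM (SD, n = 2) at 2 weeks and from 225 ± 6.60 to 49.9 ± 0.677 CPM at 48 hours in vehicle. All 10 epithelial markers, among them Epcam, Cdh1, Krt8 and Krt18, were listed in every table, and they summed to between 6889 and 21880 CPM in any library.

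Chymases and their relatives are serine proteases that mast cells and other granulocytes pack into secretory granules with proteoglycan and release when activated. Mcpt1 and Mcpt2 belong to the mucosal mast cell set in mice, and Mcpt8 is widely used as a basophil marker. Their genes lie in a cluster that also holds the granzymes and cathepsin G, and dipeptidyl peptidase I (Ctsc) activates members of this family by removing a short propeptide. Ctla2a resembles the propeptide of cysteine cathepsins and blocks cathepsin L. Intracellular serpins of the Serpinb6 and Serpinb9 groups inhibit granule serine proteases.

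In the GENCODE M21 annotation of GRCm38, Mcpt1 lies at chr14:56017971-56020384 on the plus strand, Mcpt2 at chr14:56042041-56044642 on the plus strand and Mcpt8 at chr14:56082166-56085273 on the minus strand. Mcpt1 and Mcpt2 start 24.1 kb apart, and Mcpt1 and Mcpt8 start 67.3 kb apart. Ctla2a lies at chr13:60934155-60936625 on the minus strand, 39.2 kb from the start of its relative Ctla2b. Coordinates come from the annotation, since the count tables hold none. The main transcripts of Mcpt1 and Mcpt2 were 70.9% identical and those of Mcpt1 and Mcpt8 50.8% identical. No stretch of 50 bases in Mcpt1, Mcpt2 or Mcpt8 occurred in a transcript of another gene. In Ctla2a 30.1% of such stretches did, mostly in Ctla2b and in the overlapping gene Gm49391, and 16.3% of its exon bases were shared with Gm49391 and Gm49393 on the same strand, so its counts are less certain.

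Promoter windows from RefSeq (GRCm38.p6), from 250 bases before to 50 bases after the start site, are shown because Mcpt1 and Mcpt8 moved in the same direction in most comparisons although they are distant relatives, and Mcpt4 is shown as the close relative of Mcpt1 that was hardly counted here. RefSeq windows were matched by symbol for Mcpt1, Mcpt8 and Ctla2a. For Mcpt2 none is shown. Each reads 5′ to 3′ along the gene, and capitals mark a GATA motif (TGATAA) or an AP-1 motif (TGANTCA). The windows are Mcpt1 at chr14:56017714-56018013 (plus strand), Mcpt4 at chr14:56062261-56062560 (minus), Mcpt8 at chr14:56085148-56085447 (minus) and Ctla2a at chr13:60936576-60936875 (minus).
Mcpt1: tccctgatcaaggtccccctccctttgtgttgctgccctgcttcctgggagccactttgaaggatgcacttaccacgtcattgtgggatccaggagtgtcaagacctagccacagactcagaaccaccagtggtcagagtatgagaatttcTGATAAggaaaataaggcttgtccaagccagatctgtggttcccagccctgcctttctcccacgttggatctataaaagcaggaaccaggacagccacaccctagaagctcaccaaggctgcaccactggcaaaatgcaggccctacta
Mcpt4: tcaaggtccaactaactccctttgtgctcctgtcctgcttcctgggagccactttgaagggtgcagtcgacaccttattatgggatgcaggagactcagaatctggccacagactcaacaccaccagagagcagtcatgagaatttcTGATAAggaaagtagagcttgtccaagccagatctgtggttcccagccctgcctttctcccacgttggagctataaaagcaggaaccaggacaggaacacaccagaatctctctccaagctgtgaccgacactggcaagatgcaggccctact
Mcpt8: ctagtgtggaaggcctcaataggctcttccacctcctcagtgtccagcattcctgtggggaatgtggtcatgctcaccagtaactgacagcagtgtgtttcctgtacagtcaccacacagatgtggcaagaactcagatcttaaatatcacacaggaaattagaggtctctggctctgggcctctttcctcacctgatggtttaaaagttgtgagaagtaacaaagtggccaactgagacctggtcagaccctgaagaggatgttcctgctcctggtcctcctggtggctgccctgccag
Ctla2a: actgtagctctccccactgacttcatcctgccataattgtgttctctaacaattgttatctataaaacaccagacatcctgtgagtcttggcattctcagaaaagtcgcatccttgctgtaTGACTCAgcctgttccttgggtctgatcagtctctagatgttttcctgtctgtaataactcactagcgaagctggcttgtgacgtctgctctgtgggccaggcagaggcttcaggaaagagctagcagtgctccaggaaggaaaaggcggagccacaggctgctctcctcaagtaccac
Both strands were searched for the GATA motif TGATAA and the AP-1 motif TGANTCA, and also for the ETS motif CCGGAA and the HNF4 motif CAAAGTCCA. Their letters were chosen after the windows had been seen. The motifs share no overlapping match in these 4 windows. TGATAA stood 99 bases before the start of Mcpt1 and 103 bases before that of Mcpt4, and 9.05% of 32851 windows of this length hold it. TGANTCA stood 129 bases before the start of Ctla2a, and 7.81% of the windows hold it. CCGGAA (14.9% of windows) and CAAAGTCCA (0.475%) were in none of the 4, and Mcpt8 held none of the motifs. The Mcpt1 and Mcpt4 windows were 80.6% identical, against 49.0% for Mcpt1 and Mcpt8.

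Levels differed widely between cultures. Mcpt1 was highest in 1027B vehicle (39.5 and 47.5 CPM), then 1027B with MRTX1133, 3154 with 4OHT at 2 weeks, and 1027B with trametinib, and its lowest groups were 3154 with ethanol at 48 hours. Of its 10 pairs of neighbours in this order, 3 overlapped between libraries, namely 3154 4OHT at 2 weeks with 1027B trametinib, 3154 ethanol at 2 weeks with 3311 vehicle, and ethanol at 48 hours without and with MRTX1133. The Mcpt2 order was led by the 3 groups of 1027B, and 6 of its 10 pairs overlapped, all of them among the 8 lower groups. Mcpt8 was also highest in 1027B vehicle, and 3 of 10 pairs overlapped. These were 3154 4OHT at 2 weeks with 1027B MRTX1133 and the pairs among the 3 lowest groups. Ctla2a had another order: it was highest in 3154 with 4OHT at 2 weeks and lowest in 1027B, with 4 of 8 pairs overlapping. Ctla2a in 3311 was not analysed here.

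**Figure D1:**
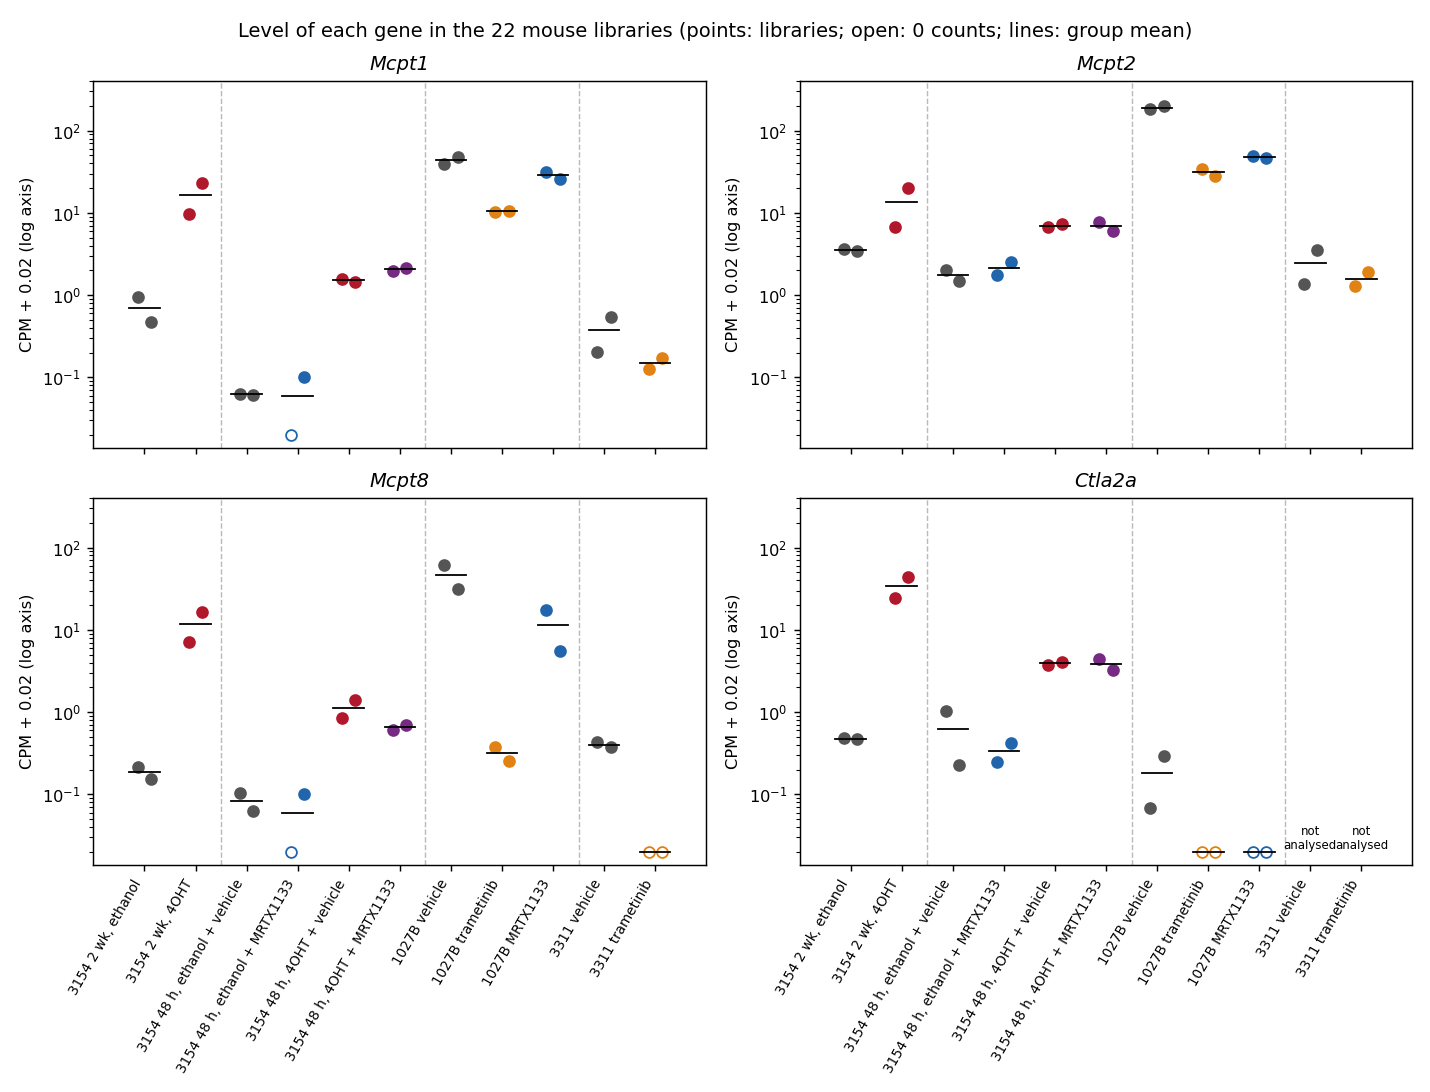
CPM of each gene in each of the 22 libraries on a log axis after adding 0.02 CPM, with points for libraries, open points for 0 counts and a line for the mean of each group of 2. The 1027B vehicle libraries are highest for the 3 proteases, whereas the 2-week 4OHT libraries (24.4 and 43.5 CPM) are highest for Ctla2a.

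Hnf4a deletion was compared first at 2 weeks, in the design's test of what the loss of this transcription factor does. Ctla2a had 0.462 and 0.449 CPM with ethanol and 24.4 and 43.5 CPM with 4OHT, a log2 change of 6.20 (SE 0.41). Mcpt8 had 0.198 and 0.135 CPM with ethanol (3 to 6 counts) and 7.06 and 16.3 CPM with 4OHT, a log2 change of 6.07 (SE 0.61). Mcpt1 went from 0.923 and 0.449 CPM to 9.55 and 22.9 CPM, a log2 change of 4.52 (SE 0.58). For these genes every 4OHT library was at least an order of magnitude above every ethanol library. Mcpt2, already at 3.59 and 3.46 CPM with ethanol, had 6.76 and 20.3 CPM with 4OHT, a log2 change of 1.93 (SE 0.53). The groups did not overlap for any of the 4, and 3 were called higher, while Mcpt2 was not called. Of all 14492 genes tested 9.81% were called, 4.03% higher and 5.78% lower, and 31.5% had all 4OHT libraries above the ethanol libraries and 30.3% below. Nothing is read from the members' count against these shares, here or in the other comparisons, because the choice of members used them. In each of the 4 genes the second 4OHT library was the higher, and without it the log2 changes were 5.73 for Ctla2a, 5.34 for Mcpt8, 3.77 for Mcpt1 and 0.94 for Mcpt2, which was again not called. Without the first ethanol library the change of Mcpt1 was 5.14. Mcpt2 was called with DESeq2 (log2 change 1.93) and when any 1 of the other 3 libraries was left out (1.90 to 2.52), so its missing call turned with the tool and with single libraries.

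At 48 hours the same 4 genes were higher with 4OHT. Mcpt1 had 1 count in each ethanol vehicle library (0.0421 and 0.0420 CPM) and 1.55 and 1.43 CPM with 4OHT, a ratio of summed counts of 35.6 (95% exact interval 9.52 to 299.7, counting error only). Mcpt8 had 0.0841 and 0.0420 CPM with ethanol (3 counts in all) and 0.834 and 1.38 CPM with 4OHT, a ratio of 17.2 (5.59 to 86.3). Both were just detectable in the ethanol vehicle libraries. Mcpt2 had 2.02 and 1.47 CPM with ethanol and 6.64 and 7.28 CPM with 4OHT, a log2 change of 1.99 (SE 0.27). Ctla2a had 1.01 and 0.210 CPM with ethanol and 3.75 and 4.06 CPM with 4OHT, a log2 change of 2.67 (SE 0.52). Its ethanol libraries differed from each other, and without the first of them the log2 change was 4.18. All 4 were called higher and none of their groups overlapped. Of 15458 genes 31% were called, 15.3% higher and 15.7% lower, and groups stood apart upwards in 34.3% and downwards in 32.5%.

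In the presence of MRTX1133 the 4 genes were again higher in both 4OHT libraries. Mcpt1 had 0 and 0.0804 CPM with ethanol and the drug (0 and 2 counts) and 1.97 and 2.13 CPM with 4OHT and the drug, a ratio of 52.4 (14.2 to 438). Mcpt8 had 0 and 0.0804 CPM and then 0.591 and 0.674 CPM, a ratio of 16.2 (4.15 to 139). These wide intervals come from 2 counts in the ethanol groups. Mcpt2 had 1.76 and 2.53 CPM and then 7.77 and 5.93 CPM, a log2 change of 1.67 (SE 0.27). Ctla2a had 0.230 and 0.402 CPM and then 4.42 and 3.19 CPM, a log2 change of 3.57 (SE 0.57). All 4 were called higher, and no groups overlapped. Without the second library with 4OHT and the drug, Mcpt8 was no longer called (log2 change 3.75). Of the genes tested 27.7% were called, 13.2% higher and 14.5% lower, and groups stood apart upwards in 33.8% and downwards in 33.9%. The difference between the deletion change with MRTX1133 and without it was 0.54 (SE 1.29) for Mcpt1, -0.32 (SE 0.38) for Mcpt2, -0.17 (SE 2.15) for Mcpt8 and 0.90 (SE 0.81) for Ctla2a on the log2 scale. Each lay within about an SE or little more of 0, and the few counts of Mcpt1 and Mcpt8 in ethanol leave room for large differences. Their SEs, derived from the F statistic, are rough. The sign turned with single libraries: without the first ethanol vehicle library the difference was -0.61 for Ctla2a. Without the first library with ethanol and the drug it was -0.39 for Mcpt1 and -1.10 for Mcpt8, and without the second 3.70 and 2.99. Over all 15458 genes the edgeR test of this difference called 0, with 1150 at an unadjusted p under 0.05, and DESeq2 called 36.

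With 3 nM MRTX1133 set against vehicle in 3154, none of the 4 genes was called. In ethanol the log2 changes were -0.09 (SE 1.13) for Mcpt1, 0.30 (SE 0.29) for Mcpt2, -0.62 (SE 1.2) for Mcpt8 and -0.94 (SE 0.68) for Ctla2a, and all 4 pairs of groups overlapped. For Ctla2a the sign rested on the first ethanol vehicle library, and without it the value was 0.57. Mcpt1 and Mcpt8 had 2 counts each with the drug, all in the second library, and without it their values were -3.24 and -3.78, against 0.84 and 0.30 without the first. Over all genes 0.349% were called, 0.317% higher and 0.0323% lower, and groups stood apart upwards in 18% and downwards in 15%. After 4OHT the log2 change was 0.46 (SE 0.34) for Mcpt1, with both drug libraries higher, and -0.79 (SE 0.46) for Mcpt8, with both drug libraries lower. It was -0.02 (SE 0.25) for Mcpt2 and -0.04 (SE 0.43) for Ctla2a, whose groups overlapped. Over all genes 4.64% were called, 2.1% higher and 2.54% lower, and groups stood apart upwards in 33.4% and downwards in 33.2%.

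In the 1027B organoids the 3 proteases were at their highest level of any mouse group in vehicle and lower with both inhibitors. Mcpt8 had 61.6 and 31.1 CPM in vehicle, 0.356 and 0.233 CPM with trametinib and 17.3 and 5.53 CPM with MRTX1133. The trametinib libraries held 13 counts of Mcpt8 together, against 1846 in vehicle. Its log2 change was -7.26 (SE 0.79) with trametinib, the lowest but 7 of 14555 genes, and -2.004 (SE 0.53) with MRTX1133. Mcpt2 had 183 and 197 CPM in vehicle, 33.9 and 28.4 CPM with trametinib and 48.8 and 46.6 CPM with MRTX1133, log2 changes of -2.61 (SE 0.12) and -1.995 (SE 0.12). Mcpt1 had 39.5 and 47.5 CPM in vehicle, 10.3 and 10.4 CPM with trametinib and 31.2 and 25.6 CPM with MRTX1133, log2 changes of -2.06 (SE 0.16) and -0.61 (SE 0.15). For all 3 both drug groups lay below vehicle, and the trametinib libraries lay below those with MRTX1133. The comparisons share the vehicle libraries, and the doses of 10 nM and 20 nM belong to different drugs, so the drugs are set side by side only. Ctla2a was at 1 and 5 counts in vehicle and at 0 in all 4 drug libraries, so it was not tested and no fold is given.

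With trametinib 3 of 3 proteases tested were called lower, where 26.7% of genes were called, 13.5% higher and 13.2% lower, and groups stood apart upwards in 32.8% and downwards in 34.3%. With MRTX1133 Mcpt2 was the 1 protease called, where 6.27% of genes were called, 3.01% higher and 3.26% lower, and groups stood apart upwards in 26.8% and downwards in 25.6%. No label pairs the 1027B samples, and the main fit has no block. Replicate numbers were taken to pair them because replicate differences correlated across genes. With the number as a block all 3 proteases were called with MRTX1133, where the calls over all genes went from 913 to 3515. With trametinib the calls went from 3880 to 6540. Without the first MRTX1133 library the Mcpt8 change was -3.06, and 2 of the 3 were called. The summed epithelial markers were also lower with the drugs, at 16320 to 20053 CPM in vehicle, 9055 to 10550 CPM with trametinib and 11505 to 12693 CPM with MRTX1133. With trametinib 4 of the 10 markers fell and 2 rose. Sftpb, the surfactant protein that led the sum in vehicle, fell with trametinib from 7899 to 991 CPM (edgeR adjusted p = 0.00491). The part of these markers in the protease changes was not tested.

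The 3311 cells held little of these genes. Mcpt2 had 1.34 and 3.55 CPM in vehicle and 1.25 and 1.86 CPM with 50 nM trametinib, a log2 change of -0.64 (SE 0.53), and its groups overlapped. Without the second vehicle library it was 0.22. Mcpt8 had 0.409 and 0.358 CPM in vehicle (11 and 9 counts) and 0 counts in both trametinib libraries, so it was at least 3.46-fold lower against a floor of 3 counts per library. Mcpt1 had 0.186 and 0.518 CPM in vehicle and 0.108 and 0.152 CPM with trametinib (18 and 7 summed counts), a ratio of 0.373 (0.132 to 0.937). The count filter kept Mcpt2 only, which was not called. Of the genes tested 39% were called, 19.4% higher and 19.6% lower, and groups stood apart upwards in 37.9% and downwards in 36.6%. The summed epithelial markers lay at 12385 to 15298 CPM in vehicle and 6889 to 8872 CPM with trametinib, with Sftpb and Krt18 the 2 of 10 that fell and none that rose. Mcpt8 was thus lower with trametinib in both libraries of both cultures treated with it, at doses of 10 nM and 50 nM.

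**Figure D2:**
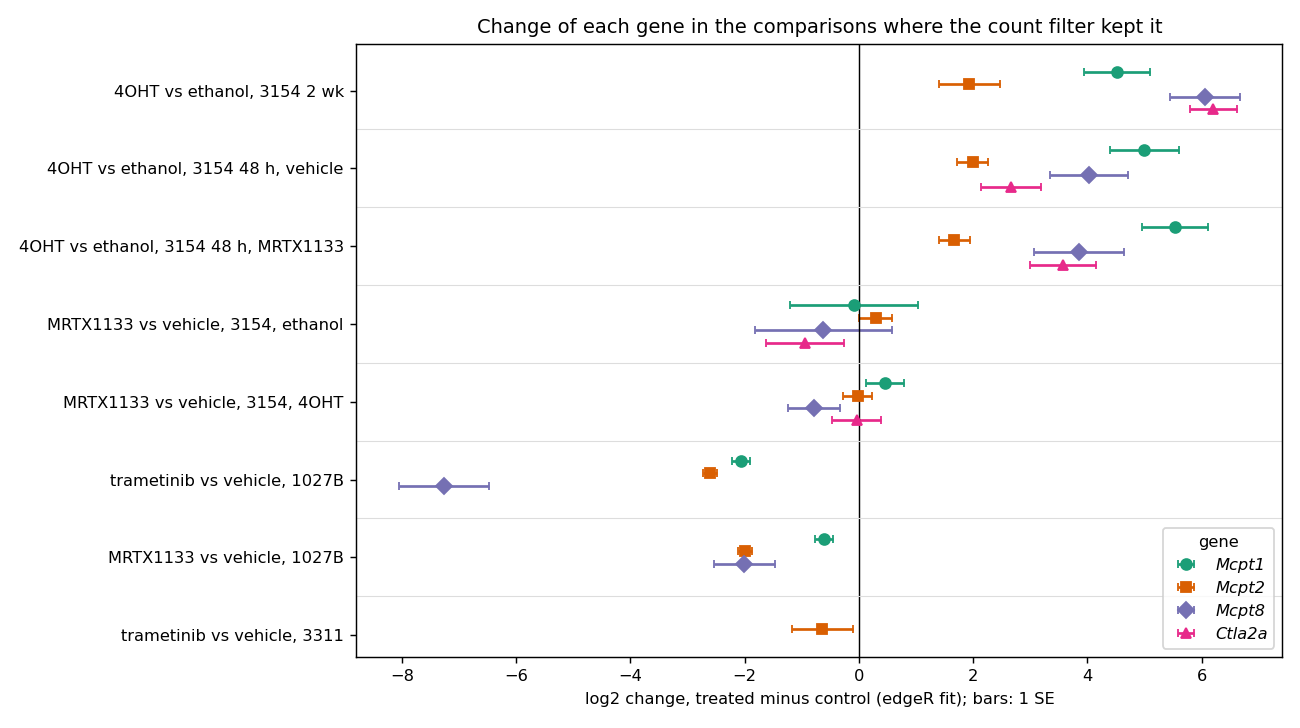
Log2 change of each gene, treated minus control, in those of the 8 comparisons where the count filter kept it, with bars of 1 SE derived from the edgeR F statistic. The deletion comparisons lie to the right (1.67 to 6.20), the 1027B inhibitor comparisons to the left (-7.26 to -0.61), and the 3154 MRTX1133 comparisons around 0.

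The 3 proteases moved by unequal amounts. Per kb of exon, Mcpt2 made up 80.1% of the summed level of the 3 proteases with ethanol at 2 weeks and 30.4% with 4OHT, while Mcpt8 went from 3.96% to 29.6% and Mcpt1 from 15.9% to 40.1%. At 48 hours in vehicle Mcpt2 went from 94.1% to 71.8%. In 1027B, Mcpt8 made up 17.2% ± 7.62 (SD, n = 2) in vehicle, 0.733% ± 0.150 with trametinib and 12.9% ± 7.80 with MRTX1133, and Mcpt1 went from 15.99% in vehicle to 25.8% and 33.3%. The vehicle and MRTX1133 libraries overlapped in the Mcpt8 share, and those with trametinib lay below both. In each of the 11 groups but 3154 with 4OHT at 2 weeks, Mcpt2 held the largest share.

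**Figure D3:**
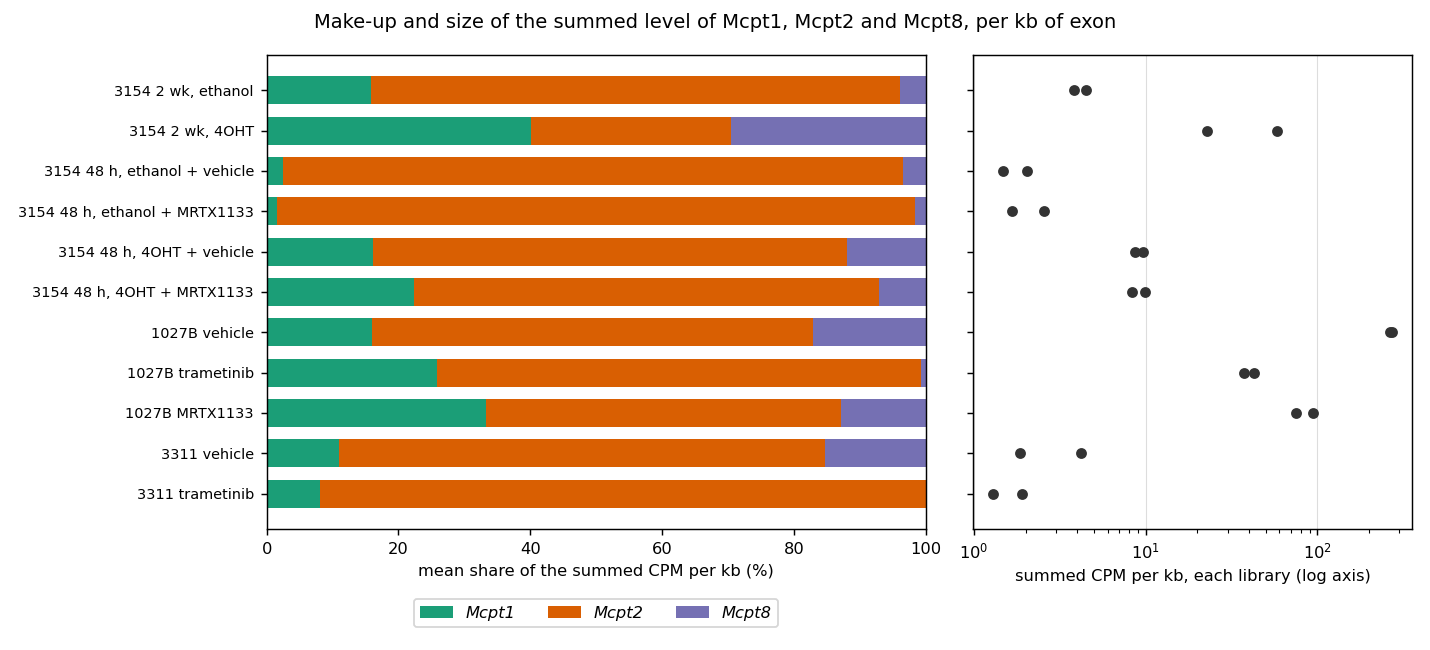
Left, mean share of each gene in the summed CPM per kb of Mcpt1, Mcpt2 and Mcpt8 in each group of 2 libraries, and right, that sum in each library on a log axis. Mcpt8 makes up 17.2% of the sum in 1027B vehicle and 0.733% with trametinib, and the 2-week 4OHT group is the one where Mcpt1 leads, with 40.1%.

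Relatives from the same cluster were few. Of 12 listed as chymase locus relatives, 6 had a row in at least 1 mouse table, and the others were not analysed here. Gzme, a granzyme, was not called after Hnf4a deletion. It fell with trametinib in 1027B from 149.8 ± 10.58 to 11.2 ± 1.79 CPM (SD, n = 2; edgeR quasi-likelihood test, Benjamini-Hochberg adjusted p = 0.00164) and in 3311 from 32.0 ± 5.62 to 3.5 ± 1.45 CPM (edgeR adjusted p = 0.000897). With MRTX1133 in 1027B it fell to 44.1 ± 24.8 CPM (edgeR adjusted p = 0.0374). Gzmd fell with trametinib in both (edgeR adjusted p = 0.00721 in 1027B and 0.0113 in 3311). Mcpt9, another mast cell protease of the cluster, fell with trametinib in 3311 (0.735 to 0.0549 CPM, edgeR adjusted p = 0.00811) and had a log2 change of -2.21 in 1027B (edgeR adjusted p = 0.0934). Cma1, the connective tissue chymase, was not called where tested, with a log2 change of -1.67 at 2 weeks (edgeR adjusted p = 0.359) and -2.30 in 3311 (edgeR adjusted p = 0.111). In all, 0 of 2, 0 of 1 and 0 of 1 tested relatives were called in the deletion comparisons, beside 2 of 3 lower with trametinib in 1027B, 1 of 3 lower with MRTX1133 there and 3 of 4 lower in 3311, where 13.2%, 3.26% and 19.6% of all genes were called lower. Their median log2 change was -3.73, -1.76 and -3.11 in the last 3, against -0.01, 0.01 and 0.01 over all genes. After deletion at 2 weeks it was -0.79, from Gzme at 0.09 and Cma1 at -1.67. At 48 hours Gzme alone was tested, with -0.41 (SE 0.37) in vehicle and -0.65 (SE 0.37) with MRTX1133. So few genes, none called, show no direction for the relatives after deletion. None was called in 3154 with MRTX1133.

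Of the tryptases and carboxypeptidase A3, only Tpsab1 passed the count filter. Tpsab1, a mast cell tryptase, rose after deletion at 48 hours in vehicle (0.147 to 0.654 CPM, edgeR adjusted p = 0.0172) and fell with trametinib in 3311 (0.844 to 0.113 CPM, edgeR adjusted p = 0.0187). After deletion its log2 change was 1.40 at 2 weeks (edgeR adjusted p = 0.337) and -0.07 at 48 hours with MRTX1133 (edgeR adjusted p = 0.949). It was called in neither comparison of 1027B, with log2 changes of -2.21 and -1.24.

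Among the inhibitors of chymotrypsin-like proteases, genes were called higher in every comparison. Serpinb9, an intracellular granzyme inhibitor, rose after deletion from 30.4 to 98.3 CPM at 2 weeks (edgeR adjusted p = 0.0180) and from 27.3 to 119.9 CPM at 48 hours in vehicle (edgeR adjusted p = 0.000141). It also rose with trametinib in 1027B from 21.6 to 128.8 CPM (edgeR adjusted p = 0.00813) and in 3311 (3.24 to 12.5 CPM, edgeR adjusted p = 0.00354), where Mcpt8 was lower. Its log2 change with MRTX1133 was 0.91 in ethanol and 0.98 after 4OHT (edgeR adjusted p = 0.0429 and 0.0177). Serpinb6b rose with trametinib in 1027B (79.5 to 355.8 CPM) and 3311 (53.9 to 136.5 CPM), and with MRTX1133 in 1027B (to 223 CPM), with edgeR adjusted p of 0.00107, 0.00104 and 0.0111. Serpinb9b, a second granzyme inhibitor, rose after deletion at 48 hours, to 5.72 CPM in vehicle. Of the list, 2 of 6 tested genes were called higher after deletion at 2 weeks, and 4 of 6 at 48 hours in vehicle and with MRTX1133, with 1 lower in vehicle. The shares of all genes called higher were 4.03%, 15.3% and 13.2% in these comparisons, and 15.7% were called lower in vehicle. With trametinib 3 of 5 were called higher in 1027B and 2 of 4 in 3311, where 13.5% and 19.4% of all genes were. With MRTX1133 it was 1 of 5 in 1027B, 1 of 6 in ethanol and 3 of 6 after 4OHT, beside 3.01%, 0.317% and 2.1% of all genes. The median log2 change was 0.42, 1.22 and 1.49 in the deletion comparisons and 2.16 with trametinib in 1027B, against 0.02, 0.01, -0.01 and -0.01 over all genes.

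Ctla2b, the relative of Ctla2a, rose after deletion at 2 weeks (0.145 to 2.09 CPM, edgeR adjusted p = 0.0209) and at 48 hours in vehicle (1 count to 22 counts, edgeR adjusted p = 0.0244). With MRTX1133 it had a log2 change of 1.38 after deletion (edgeR adjusted p = 0.280). Of its 50-base stretches, 96.7% occur in transcripts of other genes. Ctsl, cathepsin L and the known target of Ctla2a, rose after deletion at 48 hours from 143 to 255 CPM in vehicle (edgeR adjusted p = 0.00508) and from 152 to 357 CPM with MRTX1133 (edgeR adjusted p = 0.00109). At 2 weeks its log2 change was 0.63 (edgeR adjusted p = 0.208), and in the inhibitor comparisons it lay between -0.20 and 0.49, none called. Cst6, a cystatin inhibitor of cysteine cathepsins, rose at 2 weeks (0.30 to 4.03 CPM, edgeR adjusted p = 0.0103). Of the cathepsins and their inhibitors 3 of 10 rose and 1 fell at 2 weeks, and 3 of 11 rose and 2 fell at 48 hours in vehicle. With MRTX1133, 4 of 11 rose after deletion and none fell. Their median log2 changes were 0.0018, 0.20 and 0.70 in these comparisons, against 0.02, 0.01 and -0.01 over all genes. In the same order 4.03%, 15.3% and 13.2% of all genes were called higher and 5.78%, 15.7% and 14.5% lower. The 2 of 11 that fell at 48 hours in vehicle are near the background.

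Ctsc, which activates granule serine proteases, rose after deletion in the presence of MRTX1133 (387 to 548 CPM, edgeR adjusted p = 0.0139), with MRTX1133 after 4OHT (log2 change 0.73, edgeR adjusted p = 0.0198), and fell with trametinib in 3311 (219 to 55.5 CPM, edgeR adjusted p = 0.000380). After deletion in vehicle at 48 hours its log2 change was -0.29 (edgeR adjusted p = 0.0895). Hexa, a granule hydrolase of mast cells and a lysosomal enzyme elsewhere, rose with trametinib in 1027B and 3311 (edgeR adjusted p = 0.0119 and 0.00878). Of the 4 activation and storage genes tested, 0 were called at 2 weeks, 1 rose and 1 fell at 48 hours in vehicle, and 2 rose after deletion with MRTX1133. With the inhibitors, 2 rose with trametinib in 1027B, 2 rose with MRTX1133 after 4OHT, and 1 rose and 1 fell in 3311. After deletion with MRTX1133, 13.2% of all genes were called higher. The shares called higher were 13.5% with trametinib in 1027B and 2.1% with MRTX1133 after 4OHT. At 2 weeks 9.81% were called, and 0 of 4 is near that. The median log2 change of the 4 was 0.12, 0.01 and 0.40 in the deletion comparisons, 0.46 with trametinib in 1027B, 0.67 with MRTX1133 after 4OHT and 0.06 in 3311, against -0.01 to 0.02 over all genes. A count of 1 of 4 in each direction is near the share of all genes called at 48 hours in vehicle (15.3% higher and 15.7% lower) and in 3311 (19.4% and 19.6%).

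**Figure D4:**
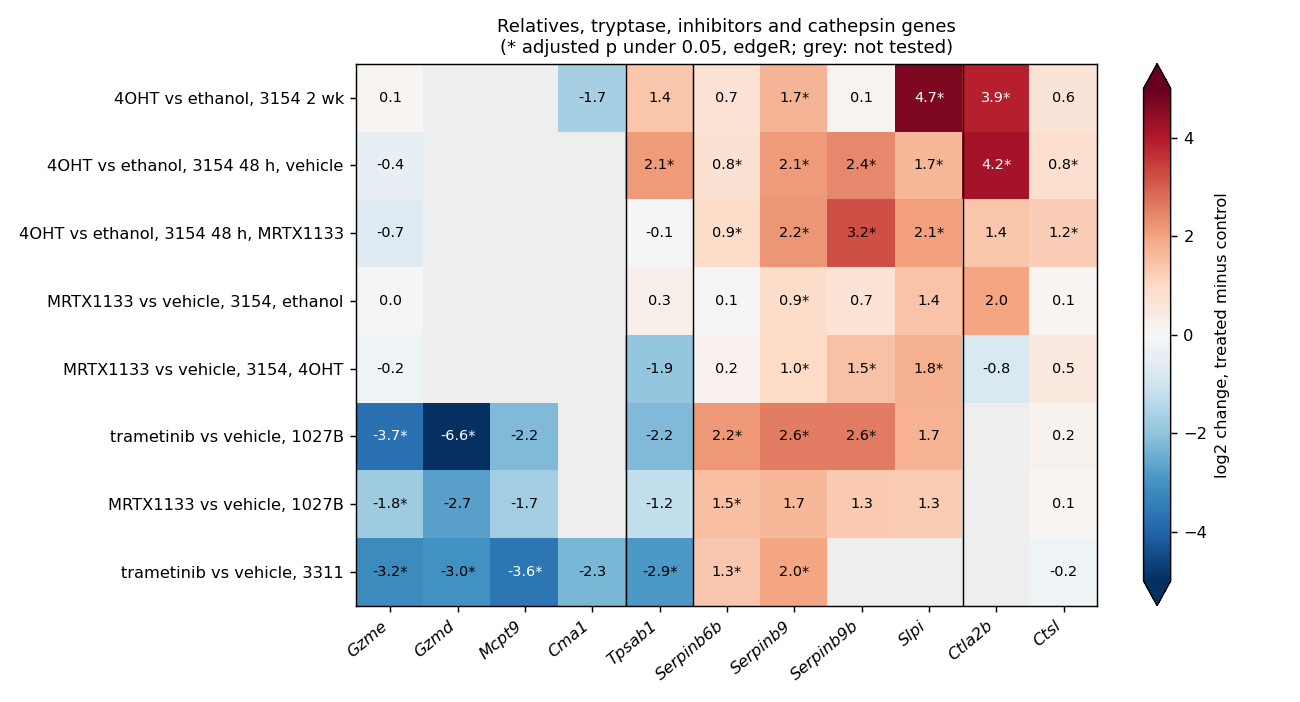
Log2 change of relatives, a tryptase, serpin and related inhibitors, and cathepsin genes in the 8 comparisons, with a star for an adjusted p under 0.05 and grey where a gene was not tested. Gzme is low with trametinib (-3.73 in 1027B), while Serpinb9 is above 0 in every comparison, called in all but MRTX1133 in 1027B.

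The labelled cultures are epithelial, so markers of mast cells and basophils were read beside the proteases. Of 16 such markers 11 had a row in at least 1 mouse table, and Fcer1a, Ms4a2, Cpa3, Slc18a2 and Prss34 were not analysed here. Cma1, Mcpt4, Tpsab1 and Tpsb2 also stand in the protease lists. Tpsb2 never passed 3 counts and Mcpt4 never passed 5. The summed level of the list ran from 83.2 to 113.3 CPM in 1027B vehicle, 24.4 to 25.3 CPM with trametinib and 21.2 to 33.2 CPM with MRTX1133. Most of that sum was Hdc (histidine decarboxylase), at 64.8 CPM in vehicle, which fell with both drugs (edgeR adjusted p = 0.00116 and 0.00677). Kit, the mast cell growth factor receptor, instead rose with trametinib from 0.0812 to 2.73 CPM (edgeR adjusted p = 0.00533). In the 1027B comparison 3 of 6 tested markers rose and 1 fell with trametinib, where 13.5% of all genes were called higher and 13.2% lower, so the 1 that fell is near the background.

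In 3154 the same list summed to 25.0 to 32.8 CPM with ethanol and 16.4 to 25.0 CPM with 4OHT at 2 weeks, and at 48 hours in vehicle to 153 to 180 CPM and then 64.6 to 65.6 CPM. Hdc fell after deletion at 48 hours both in vehicle (log2 change -1.43, edgeR adjusted p = 0.00130) and with MRTX1133 (log2 change -2.45, edgeR adjusted p = 0.000222), and had a log2 change of 0.37 at 2 weeks (edgeR adjusted p = 0.406). Gata2, a GATA factor of mast cells and basophils, fell at 2 weeks from 10.1 to 0.977 CPM (edgeR adjusted p = 0.00854). Mrgprb2, a mast cell receptor, rose at 2 weeks from 0.50 to 3.67 CPM (edgeR adjusted p = 0.0126) and at 48 hours in vehicle (edgeR adjusted p = 0.00634), and Cd200r3 and Il1rl1 rose at 48 hours in vehicle, each staying under 1 CPM. Cd200r3 and Il1rl1 also rose after deletion with MRTX1133, Cd200r3 from 0.0402 to 1.48 CPM (edgeR adjusted p = 0.00215) and Il1rl1 from 0 counts to 0.264 CPM (edgeR adjusted p = 0.0106), while Hdc and Hpgds fell there. Mrgprb2 had a log2 change of 0.78 with MRTX1133 (edgeR adjusted p = 0.188). Of the tested markers 1 of 7 rose and 1 fell at 2 weeks, 4 of 6 rose and 1 fell at 48 hours in vehicle, and 2 of 6 rose and 2 fell with MRTX1133. Of all genes 4.03%, 15.3% and 13.2% were called higher and 5.78%, 15.7% and 14.5% lower in the same order, so the 1 of 6 that fell in vehicle is near the background.

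In 3311 the list summed to 18.8 to 27.4 CPM in vehicle and 22.8 to 23.98 CPM with trametinib, while its members moved in opposite directions. Hpgds, the hematopoietic prostaglandin D synthase, rose from 0.867 to 11.2 CPM (edgeR adjusted p = 0.00469) and led the sum with trametinib. Hdc fell from 19.8 to 10.9 CPM (edgeR adjusted p = 0.0236), as did Tpsab1, so that 1 of 5 tested markers rose and 2 fell, where 19.4% of all genes were called higher and 19.6% lower. The 1 of 5 that rose is near that share. Of 12 markers of other leukocytes 4 had a row, led by Csf1r or Ptprc, and summed to at most 38.5 CPM in any library. That highest value was an ethanol library at 2 weeks, where the ethanol libraries held 13.5 to 38.5 CPM and the 4OHT libraries 3.81 to 5.92 CPM. In 3311 their sum was instead higher with trametinib, at 4.91 to 11.8 CPM in vehicle and 20.6 to 28.1 CPM with the drug. Csf1r, a macrophage growth factor receptor, fell after deletion at 2 weeks (edgeR adjusted p = 0.0416) and rose with trametinib in 3311 (edgeR adjusted p = 0.0230) and in 1027B (0.432 to 2.61 CPM, edgeR adjusted p = 0.00560). Ptprc, the general leukocyte marker, fell with trametinib in 1027B (edgeR adjusted p = 0.0356). Endothelial and stromal markers summed to at most 6.20 CPM in the organoids and 12.6 to 17.3 CPM in 3311. Of these, Pecam1 fell at 2 weeks from 5.48 to 2.12 CPM (edgeR adjusted p = 0.0394), Col1a1 rose after deletion with MRTX1133 and with trametinib in 3311 (edgeR adjusted p = 0.0286 and 0.0195), and Pdgfra fell in 3311 (edgeR adjusted p = 0.0186). The part of other cells in the protease results was not tested, and fewer cells of a type and less RNA per cell cannot be told apart in these bulk libraries.

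Genes with the pattern most like each member were sought over all 22 libraries, as Pearson r of log2 CPM minus the table mean, which is a description since libraries of a table share scaling and groups. The genes searched were those that passed the count filter in all 4 tables (12598 for Ctla2a), which leaves out Mcpt1, Mcpt8 and Ctla2a themselves. Mcpt1 was most like Aldh1a3 (r = 0.958), Cyb561a3, Anxa5, Pgm5 and Nes (r = 0.939). Mcpt2 was most like Dpep2 (r = 0.891), Avil, Slc25a24, Bcas1 and Fer1l6 (r = 0.870). Mcpt8 was most like Slc4a11 (r = 0.943), Mmp13, Galnt1, Tmem71 and Phc2 (r = 0.907). Over the 18 libraries where it was analysed, Ctla2a was most like Serinc2 (r = 0.940), Nes, Elk3, Cpe and Chst2 (r = 0.916). Among the members, r was 0.860 for Mcpt1 and Mcpt2, 0.822 for Mcpt1 and Mcpt8 and 0.845 for Mcpt2 and Mcpt8, and Ctla2a had r = 0.917 with Mcpt1, 0.792 with Mcpt2 and 0.759 with Mcpt8. With Spearman's rho instead, 3 of the 5 genes for Mcpt1, 2 for Mcpt2, 2 for Mcpt8 and 3 for Ctla2a were again among the first 5.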

How the data were processed

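RNA from 22 mouse libraries was analysed; 12 human libraries in 3 tables were not used, since the genes are mouse genes. The authors deposited raw read counts per gene with no normalization, 1 table for each experiment. Per the labels' protocols, poly(A) RNA was made into directional libraries read from both ends at 150 bases. The submitters' processing notes name cutadapt 3.5, STAR 2.7.6a and featureCounts 1.6.3, and both mm10 and mm39, without saying which build made which table. The 3311 columns were assigned by the name of their table. An allele that all groups share is not reported here.

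Separate fits were made for the tables (R 4.3.3, edgeR 4.0.16): filterByExpr, TMM scaling and the quasi-likelihood F-test, with Benjamini-Hochberg adjustment over the genes tested and a call at adjusted p under 0.05. Groups were 3154 with ethanol or 4OHT, with or without MRTX1133, and 1027B or 3311 with vehicle or inhibitor. Each comparison is drug or 4OHT against its matching control. The groups of a table shared 1 fit. The SE of a log2 change is its absolute value divided by the square root of its F statistic. It is not an error estimated by the fit itself. Alternatives were DESeq2 1.42.0, RLE factors, no count filter, at least 10 counts in every library, a replicate block, a fit of the 2 compared groups alone, leaving out each library, and other measures of likeness. A group at 0 counts was bounded with 3 counts per library. Ratios of counts have 95% exact intervals, which cover counting error only. No pair of replicates agreed within sampling noise (chi-square over genes divided by its degrees of freedom, 5.40 to 79.5). The fits were tested on simulated data. Replicate numbers were taken to pair the 1027B samples because, between each of its 3 pairs of groups, the replicate differences correlated across genes (r = 0.243, 0.372 and 0.414).

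The members, the 5 gene lists and the 4 marker lists were chosen with earlier results of these data known. Named genes are the members, up to 3 called genes of each list with the largest change in a comparison, their direct relatives, Ctsl, Hnf4a, and the 5 genes most like each member. Sequences and promoter windows are from RefSeq, and gene positions and exon lengths from GENCODE M21.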

Additional observations from a re-analysis of the deposited data

Results flagged for a closer look

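Mcpt1 had log2 changes of opposite sign with MRTX1133 in 2 cultures, neither of them called. In 3154 organoids after 4OHT, both libraries with 3 nM MRTX1133 lay above both vehicle libraries (log2 change 0.46, SE 0.34), and in 1027B organoids both libraries with 20 nM lay below (log2 change -0.61, SE 0.15). Groups stood apart upwards in 33.4% of all genes in the first comparison and downwards in 25.6% in the second. In 3154 with ethanol the Mcpt1 change with 3 nM was -0.09 (SE 1.13), and the groups overlapped. The difference was not tested, neither change was called in the edgeR fit without a block, and culture, dose and experiment differ together.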

How the results depend on the processing

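All 4 members kept their direction after Hnf4a deletion, as did the 3 proteases with both inhibitors in 1027B, under every alternative in which they were tested. The number of genes called moved more. With DESeq2 it was 2311 at 2 weeks, 330 and 1342 for MRTX1133 in ethanol and after 4OHT, 36 for the interaction and 1636 for MRTX1133 in 1027B, against 1421, 54, 717, 0 and 913. With only the 2 groups compared it was 3154 for the deletion at 48 hours in vehicle, 0 for MRTX1133 in ethanol and 3932 after 4OHT. With the replicate number as a block it was 4563 at 2 weeks, 6540 for trametinib and 3515 for MRTX1133 in 1027B; 3 members were then called with MRTX1133 in 1027B, against 1 without the block and 2 with DESeq2. The numbers of the 48-hour 3154 libraries were not taken to pair them (r from -0.251 to 0.549 between groups). The 2-week and 3311 tables have 1 pair of groups each (r = 0.427 and 0.126).

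At least 10 counts in every library left 1 member tested and called in each deletion comparison at 48 hours. Mcpt1 and Mcpt8 were near 0 in ethanol, and Ctla2a had as few as 5 counts in an ethanol library. With no count filter 1 member was called in 3311. Leaving out each library in turn, the genes called ranged from 395 to 2790 at 2 weeks, 1668 to 5964 for the deletion at 48 hours in vehicle, 1745 to 2805 with MRTX1133, 0 to 309 and 0 to 23 for MRTX1133 in ethanol and after 4OHT, 1336 to 2754 for trametinib and 138 to 349 for MRTX1133 in 1027B, and 3772 to 6298 in 3311. The members called ranged from 3 to 4 at 2 weeks and for the deletion with MRTX1133, from 1 to 2 with MRTX1133 in 1027B and from 0 to 1 in 3311. At 2 weeks 4 were called with DESeq2 and with the replicate block (Mcpt2 log2 change 1.73), against 3. With 2 libraries per group a lone library is taken to vary like the others. Counts of 0 to 2 per ethanol library at 48 hours limit Mcpt1 and Mcpt8 there. Without the second ethanol library with MRTX1133 their deletion changes were 8.69 and 7.00, and without the first 4.60 and 2.91.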
